A study of Homo sapiens with 12 samples.

Results

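The transcriptome of THP-1 macrophages was compared between cells given low-density lipoprotein (LDL) and cells given medium alone. THP-1 is a human monocytic leukaemia line that phorbol ester (PMA) turns into macrophage-like cells. The comparison used 6 of the 12 libraries of the study, 3 control and 3 LDL, and every gene whose mean reached 10 normalised counts in either group. That rule kept 16167 of the 20117 genes of the deposited table. It treated both groups alike but read the larger group mean, so it was not independent of the difference between the groups. A low gene could pass only through the group in which it stood higher. Just inside the threshold stood C4orf46P2 and LINC03011, both with a larger group mean of 10.0, and just outside stood FGD5 at 9.98 and DUXAP10 at 9.96.

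Both groups were PMA-induced macrophages in serum-free RPMI-1640 medium. The control cells received medium without LDL, and the labels name no vehicle. The treated cells received 100 µg/mL of native LDL for 24 h, and the LDL came from donors with cardiovascular disease. The other 6 libraries, from an endothelial line, enter only 1 alternative fit. The study's stated question concerns the mechanics of both cell kinds under such LDL. The labels call the 3 libraries of a group biological replicates. They do not say whether these came from separate cultures, so the p-values measure only the spread between these libraries, which may be technical.

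Depth ranged from 6232063 to 11002158 reads per THP-1 library, and 1 read was worth between 0.653 and 1.46 normalised counts. The deposited values summed to between 7186317 and 7284242 in the control libraries and to between 9086968 and 9204189 in the LDL libraries, so equal values were a smaller share of an LDL library. Pearson's r of log2(normalised count + 1) was between 0.991 and 0.992 among the control libraries, between 0.973 and 0.982 among the LDL libraries, and between 0.841 and 0.866 across the groups. Several shares that track RNA quality moved with the group. The transcripts of the mitochondrial genome held between 0.117% and 0.136% of the control values and between 0.0407% and 0.0561% of the LDL values. Cytosolic ribosomal protein genes held between 1.65% and 1.82% against between 0.711% and 0.773%. The nuclear RNA MALAT1 held between 1.57% and 1.73% against between 3.15% and 3.35%. Their part in the results was not tested. In bulk RNA, a change in the number of cells of a type and a change in RNA per cell cannot be told apart.

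LDL carries cholesterol in the blood, and macrophages that take it up through receptors hydrolyse its cholesteryl esters in lysosomes. Macrophages also read microbial and damage signals through pattern recognition receptors, which act through NF-kB and interferon regulatory factors. NF-kB drives cytokine and chemokine genes, while secreted interferons act through JAK kinases and STAT factors on a second wave of genes that carry the interferon-stimulated response element, ISRE. Macrophages also adjust amino acid supply, metal handling and the cell cycle during such responses.

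LDL changed most of the measured transcriptome, and the largest changes were rises. With limma on log2(normalised count + 1) and Benjamini-Hochberg adjustment over all 16167 genes, 10425 genes (64.5%) had an adjusted p under 0.05, the threshold used throughout. Of these, 5743 (35.5% of the genes tested) were higher and 4682 (29.0%) were lower with LDL. A log2 change of at least 1 was added by 2736 of the higher genes (16.9%) and by 1765 of the lower genes (10.9%). Past a log2 change of 3 there were 556 rises against 116 falls, and past 5 there were 121 against 5. The groups did not overlap for 6063 genes (37.5%) on the higher side and for 5074 genes (31.4%) on the lower side. The median log2 change of all genes was 0.076, with quartiles at -0.46 and 0.68. This balance moved with the scaling: the median was -0.022 under TMM and -0.082 under quantile normalisation, and the share of calls on the higher side was 55.1% as deposited, 48.4% under TMM and 44.7% under quantile normalisation. Of the 5742 genes not called, 2477 had a 95% interval of the log2 change that lay within 0.5 of 0. Each list of related genes described from here on is to be read against those background shares and that median.

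**Figure D1:**
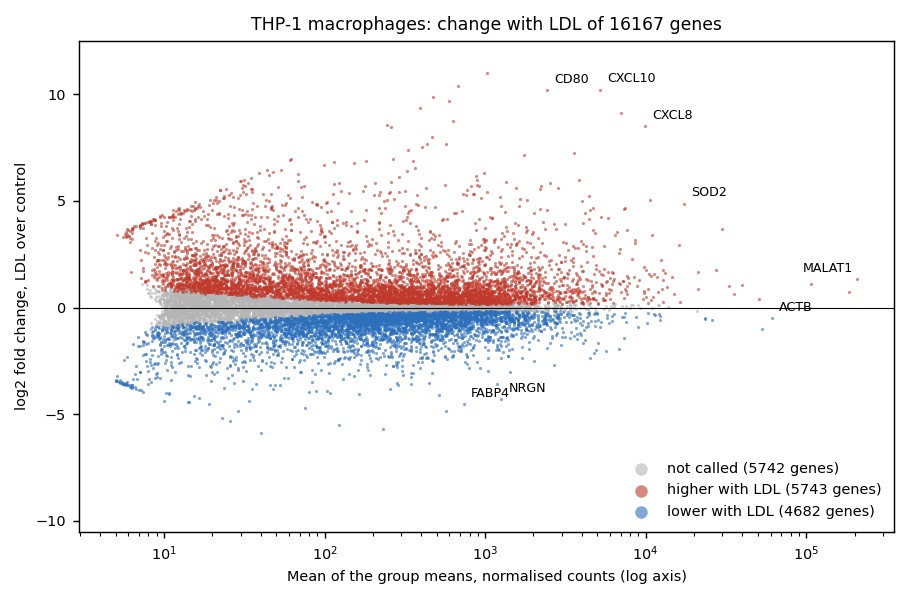
Each point is 1 of 16167 genes, placed by its mean of both group means in normalised counts (log axis) and by its log2 fold change of LDL over control. The 5743 genes called higher reach log2 changes above 10, whereas the 4682 called lower stay above -6.

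The steepest rises included chemokines, interferon-induced genes and surface proteins that engage T cells. CXCL10, a chemokine that draws activated T cells, stood at 10.5, 5.88 and 7.52 normalised counts without LDL and at 10134, 11738 and 9403 with it (chr4:76021117-76023497, GRCh38). Every LDL library was far above every control library, and the log2 change was 10.21 (SE 0.15, adjusted p = 3.3e-14). CD80, a costimulatory ligand for T cells, stood at 4.35, 3.92 and 1.88 against 4847, 5034 and 4781, a log2 change of 10.17 (SE 0.19, adjusted p = 2.0e-13). CD274, which encodes the checkpoint ligand PD-L1, stood at 0.871, 3.92 and 1.88 against 1236, 1351 and 1218. IFI44L, an interferon-induced gene, stood at 21.8, 21.6 and 31.0 against 12556, 15617 and 14029.8, a log2 change of 9.11 (adjusted p = 2.3e-14). The LDL libraries lay close together for all 4 genes. CXCL8, which draws neutrophils, rose to 19766 ± 3156 from 53.1 ± 7.49 normalised counts (mean ± SD, n = 3 per group here and in what follows). Further chemokines among the 20 largest rises were CCL8 (to 931 ± 51.3 from 3.19 ± 2.53), CCL1 (to 1137 ± 86.0 from 4.81 ± 2.02) and CCL2 (to 859.6 ± 46.6 from 3.34 ± 1.08). CXCL3 (to 303 ± 19.1 from 1.84 ± 0.843) shares sequence with its close relatives, so its reads may be split among them.

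Other genes among the 20 largest rises act outside chemotaxis. The antiviral enzyme RSAD2 rose to 7123 ± 695 from 45.6 ± 3.72 and the interferon-induced protein IFI27 to 708 ± 69.4 from 5.46 ± 2.81. The adhesion molecule VCAM1 rose to 531 ± 99.5 from 3.34 ± 1.08 and the tight-junction protein CLDN1 to 659 ± 85.5 from 2.90 ± 0.335. P3H2, a collagen prolyl 3-hydroxylase, rose to 3487 ± 277 from 23.9 ± 5.66. HLA-DRA, the alpha chain of HLA-DR, rose to 728 ± 80.4 from 6.79 ± 0.833. For CXCL11, CCR7, LAMP3, SLC30A4-AS1 and HMGN2P46 the control libraries held a handful of reads or none, so the fitted change depends on the pseudocount and only the values are given. CXCL11, another T cell chemokine, stood at 0, 1.96 and 0 against 1065, 1338 and 1158. CCR7, the receptor that guides dendritic cells to lymph nodes, stood at 0.871, 0 and 0 against 842, 805 and 726. LAMP3, a lysosomal membrane protein of mature dendritic cells, stood at 0, 1.31 and 0 against 491, 544 and 440.3. In all 5 the groups were far apart, and the limma call was made in each.

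The steepest falls held a chemokine receptor pair, a lipid chaperone and several muscle and nerve genes. CX3CR1, the receptor of fractalkine that marks patrolling monocytes, stood at 1043, 1100.4 and 1187 normalised counts without LDL and at 32.4, 44.7 and 35.0 with it. The groups did not overlap, and the log2 change was -4.87 (SE 0.12, adjusted p = 3.1e-12). CXCR2, the receptor of CXCL8, fell to 2.9997 ± 2.60 from 64.4 ± 6.65. FABP4, the fatty acid-binding protein of adipocytes and macrophages, stood at 1458, 1511 and 1263 against 52.0, 57.8 and 70.0, a log2 change of -4.54 (SE 0.12, adjusted p = 3.1e-12). NRGN, the calmodulin-binding protein neurogranin, stood at 2402, 2383 and 2407 against 146, 109 and 117, a log2 change of -4.28 (adjusted p = 1.2e-12). DYSF, the membrane repair protein dysferlin, fell to 57.1 ± 14.3 from 978 ± 37.6, and BIN1, a membrane-bending protein, to 11.99 ± 3.98 from 204 ± 5.52. The muscarinic receptor CHRM3 fell to 42.1 ± 7.16 from 528 ± 11.8 and the calcium channel subunit CACNB4 to 33.5 ± 7.27 from 476 ± 30.5. MAMDC2 (to 9.10 ± 5.61 from 454 ± 24.8), PHACTR3 (to 5.54 ± 4.53 from 239 ± 4.47) and EPB41L1 (to 18.1 ± 4.32 from 309.8 ± 28.3) completed the falls from more than 200 control counts. The fall of FGL1 (to 0.486 ± 0.842 from 79.3 ± 5.93) was the steepest in this group, and its LDL values rest on few reads.

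**Figure D2:**
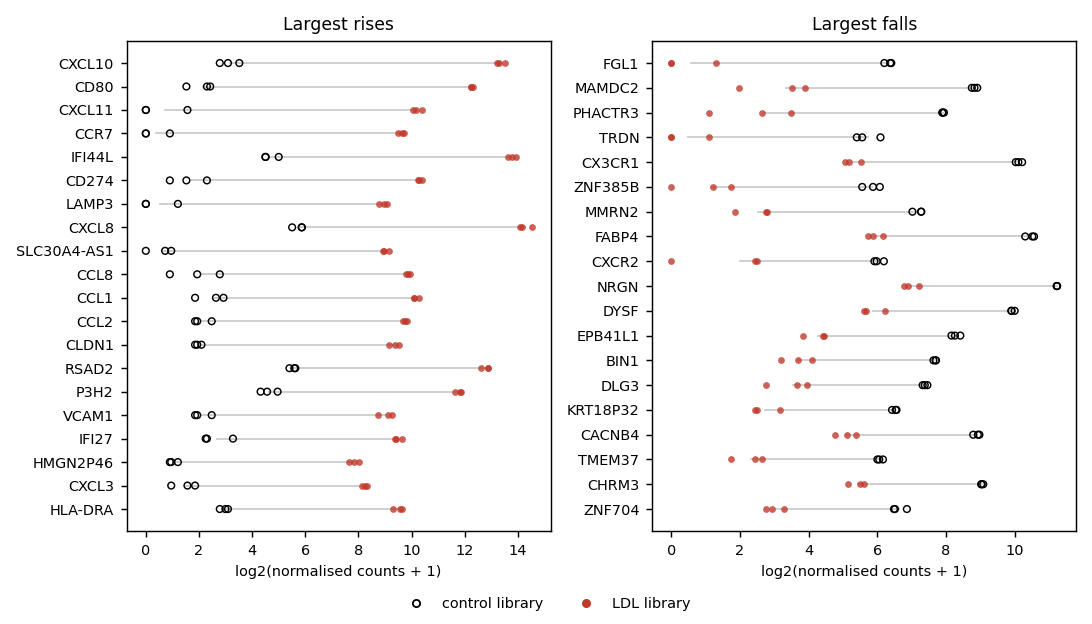
Each row is 1 gene and each point 1 library, on the log2(normalised counts + 1) axis, with open circles for the 3 control and filled circles for the 3 LDL libraries. The 20 rises and 19 falls shown were required to have groups that do not overlap, and rises such as CXCL10 span more of the axis than falls such as CX3CR1.

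Promoter sequences of the leading genes are shown because motifs for the factors that act in such responses can be read in them. Promoters of 300 bases, from 250 before to 50 after the start, were taken from RefSeq on build GRCh38.p14 and matched 11136 of the tested genes. Among the 20 largest rises, the 2 with the smallest adjusted p that hold an ISRE match (letters GAAANNGAAA, either strand) and, of the others, the 2 that hold a kB match (GGGNNNTTCC, either strand) are printed 5′ to 3′. Capitals mark only the motif named on each line, and the CXCL10 promoter also holds a kB match. Overlapping kB matches of CCL1 run together.
IFI44L, chr1:78620198-78620497, plus strand, ISRE: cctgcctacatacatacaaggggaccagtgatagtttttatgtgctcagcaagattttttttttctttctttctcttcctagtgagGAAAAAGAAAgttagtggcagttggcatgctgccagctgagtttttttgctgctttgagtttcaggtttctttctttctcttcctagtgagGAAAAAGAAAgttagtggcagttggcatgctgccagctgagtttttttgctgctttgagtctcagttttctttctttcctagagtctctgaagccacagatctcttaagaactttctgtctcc
CXCL10, chr4:76023448-76023747, minus strand, ISRE: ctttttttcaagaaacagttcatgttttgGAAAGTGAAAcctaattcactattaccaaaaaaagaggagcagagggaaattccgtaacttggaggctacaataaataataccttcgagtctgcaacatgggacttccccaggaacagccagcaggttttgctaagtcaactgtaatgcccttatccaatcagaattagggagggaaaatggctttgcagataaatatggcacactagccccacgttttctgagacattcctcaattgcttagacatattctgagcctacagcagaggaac
CCL1, chr17:34363184-34363483, minus strand, kB: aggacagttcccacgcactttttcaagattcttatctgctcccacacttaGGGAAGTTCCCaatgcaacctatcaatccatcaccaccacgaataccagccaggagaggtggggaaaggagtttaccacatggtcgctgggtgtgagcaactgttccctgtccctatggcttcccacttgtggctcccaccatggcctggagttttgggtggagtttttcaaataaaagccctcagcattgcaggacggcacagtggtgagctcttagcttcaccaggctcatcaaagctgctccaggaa
CXCL11, chr4:76036021-76036320, minus strand, kB: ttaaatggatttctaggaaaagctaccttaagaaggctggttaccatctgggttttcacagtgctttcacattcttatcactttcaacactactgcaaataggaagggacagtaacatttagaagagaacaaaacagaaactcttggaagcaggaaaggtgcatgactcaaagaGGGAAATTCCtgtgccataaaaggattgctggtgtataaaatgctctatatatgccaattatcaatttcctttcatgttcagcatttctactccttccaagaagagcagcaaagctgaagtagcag
The IFI44L promoter held the ISRE match at 2 places, from -164 to -155 and from -73 to -64 relative to the start, and both had the same letters. In CXCL10 the match ran from -221 to -212, and in CXCL11 the kB match ran from -76 to -67.

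Across the tested genes, promoters of genes that rose held immune motifs and some other motifs in larger shares. An ISRE match was present in 2.98% of the promoters of tested genes and in 3.65% of all 27305 promoters of the table. The share was 7.18% (111 promoters) among genes higher by at least 1 log2 unit and 12.9% (40 promoters) among genes higher by at least 3. It was 2.03% among genes lower by at least 1. The kB match was in 7.61% of tested promoters, in 10.0% of those higher by at least 1 and in 15.1% of those higher by at least 3. AP-1 matches (TGANTCA) stood at 4.55%, 8.21% and 12.9% for the same sets, and GAS matches (TTCNNNGAA) at 6.25%, 8.86% and 13.2%. The E2F match (TTTNNCGC) was in 10.6% of tested promoters, 7.89% of those higher by at least 1 and 12.8% of those lower by at least 1. The CRE match (TGACGTCA) stood at 3.25%, 2.85% and 2.73% for these last sets. Read the other way, genes with an ISRE match had a median log2 change of 0.41 and 51.8% were called higher, against 33.1% of genes without it. The same shares were 46.5% against 33.1% for AP-1, 38.9% against 33.2% for kB and 38.5% against 33.4% for GAS. For the letters TATAAA they were 43.3% against 33.1%, a wider gap than for kB or GAS. Over all promoters of the table, the shares were 6.47% for kB, 7.76% for AP-1, 7.88% for GAS, 6.90% for E2F and 1.98% for CRE. The cell cycle CHR motif (TTTGAA) was in 15.4% of all promoters, in 10.2% of tested ones, in 15.3% of those lower by at least 1, in 12.7% of those higher by at least 1 and in 14.8% of those higher by at least 3. The sterol element SRE (TCACNCCAC) was in 1.15% of all promoters, the PU.1 motif (GAGGAAGT) in 2.54% and the E-box (letters CACGTG) in 7.43%. Among tested promoters, those higher by at least 1 and those lower by at least 1, SRE stood at 1.15%, 0.970% and 0.937%. For the same sets PU.1 stood at 2.80%, 3.43% and 2.65%, and the E-box at 9.91%, 7.70% and 8.51%. The NF-Y motif CCAAT was in 35.7% of all promoters, in 36.9% of tested ones, in 43.5% of those lower by at least 1, in 33.1% of those higher by at least 1 and in 37.6% of those higher by at least 3. The letters of a TATA box, written TATAAA, were in 12.0% of all promoters, in 6.01% of tested ones, in 15.1% of those higher by at least 3 and in 7.34% of those lower by at least 1. Both strands were searched, and matches of different motifs may overlap. These are counts of letters in fixed windows and carry no test.

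Some genes were listed at 0 in every library of a group, 97 in the control group and 34 in the LDL group. No fold is given for them. IDO1, which starts tryptophan catabolism, was listed at 0 in every control library and stood at 2154, 2234 and 1811 with LDL. TNFAIP6, a hyaluronan-binding protein, stood at 1249, 1595 and 1229, and CXCL13, which draws B cells, at 906, 1084 and 831. ACOD1, the enzyme that makes itaconate, stood at 124, 124 and 125, CLEC4E, a lectin that senses mycobacterial glycolipid, at 75.2, 104 and 83.1, and LIFR, a cytokine receptor, at 50.9, 61.8 and 67.1. The LDL libraries lay well above 0 in all of them. The lowest LDL library was less clear of 0 for SLC7A11-AS1 (8.09, 118 and 51.0) and ANKRD36BP1 (4.62, 183 and 61.2), where 1 library carried most of the count.

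By share of the summed values, the pool of transcripts became more concentrated in its most abundant genes. The 100 most abundant genes held 19.6% ± 0.207 of the summed values in the control libraries and 25.01% ± 0.394 with LDL, and the top 10 held 8.63% ± 0.192 against 11.3% ± 0.277. Abundant non-coding RNAs took part in this. MALAT1 held between 1.57% and 1.73% in control libraries and between 3.15% and 3.35% with LDL. RN7SL1 held between 1.74% and 2.07% against between 2.15% and 3.08%, and RMRP between 0.857% and 1.04% against between 1.47% and 1.73%. How far the concentration rests on these RNAs was not tested. Genes called higher gained 3095610 normalised counts in all and genes called lower lost 1171752. These sums follow the deposited scaling, in which the LDL libraries have larger totals. At equal totals the gains and losses over all genes would be equal. The 15 largest gains made up 21.1% of the gain, and the 15 largest losses 12.2% of the loss. These counts are not divided by transcript length.

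The coding genes among the 15 largest gains in counts had different roles. SOD2, the mitochondrial superoxide dismutase, rose to 33639 ± 1877 from 1148 ± 11.8, MMP9, a gelatinase, to 41890.2 ± 2254 from 12597 ± 1183, and the E3 ligase RNF213 to 28462 ± 1052 from 3686 ± 58.0. The lysosomal saposin precursor PSAP rose to 44246 ± 4383 from 22076 ± 665, the class I light chain B2M to 32056 ± 2780.5 from 10081 ± 345, and the adhesion molecule ICAM1 to 20719 ± 1307 from 624 ± 28.8. The peptide transporter TAP1 rose to 19855 ± 1874 from 1907 ± 139.9 and the kinase SGK1 to 20631 ± 1076 from 4471 ± 96.1. The chitinase-like protein CHI3L1 rose to 43127 ± 3783 from 27431 ± 1862, with a log2 change of 0.65 that was 0.043 and not called under quantile normalisation. Non-coding RNAs gained counts as well, and MALAT1, RN7SL1, RMRP and TALAM1 had the 4 largest gains of all. MALAT1 rose to 298367 ± 7114 from 118244 ± 5461, RMRP, the RNA of a ribonuclease that trims ribosomal RNA, to 147188 ± 11155 from 67912 ± 7045, and NEAT1, the scaffold of paraspeckles, to 53586 ± 1663 from 26186 ± 1036. RN7SL1, a part of the signal recognition particle, rose to 229763 ± 46522 from 138623 ± 11963, and its log2 change was 0.71 as deposited and -0.31 under quantile normalisation. TALAM1 stood at 3897, 2452 and 3020.4 against 11135, 103728 and 54927. The LDL libraries of TALAM1 were spread widely, and its log2 change of 3.70 was 4.62 without LDL replicate 1 and 3.01 without LDL replicate 2. Its gene lies opposite MALAT1, and its reads cannot be told apart from those of MALAT1 where strand was not used in counting, which the sources do not state.

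The 15 largest losses in counts also came from genes of different roles. CAP1, which recycles actin monomers, stood at 71785, 69560.4 and 70791 normalised counts without LDL and at 37542, 36081 and 31714 with it, a log2 change of -1.01 (SE 0.083, adjusted p = 2.4e-07). The actins ACTB and ACTG1 fell by 0.49 and 0.50 on the log2 scale, ACTB to 50548 ± 832 from 71260.2 ± 3803 normalised counts and ACTG1 to 19331 ± 1068 from 27250.1 ± 729.6. The giant scaffold protein AHNAK fell to 2802 ± 82.7 from 10874 ± 487, and the sorting receptor SORL1 to 1442 ± 81.1 from 7533 ± 155. The lipogenic enzymes SCD and FASN fell to 2196 ± 104.6 from 9136 ± 161 and to 1966 ± 289.8 from 7791 ± 604. SPP1, which encodes osteopontin, fell to 20814 ± 2327 from 30670.4 ± 996 but was not called in the fit to all 12 libraries (adjusted p = 0.40). The lysosomal thioesterase PPT1 fell to 19156 ± 2314 from 27438 ± 1040.5, and the centriolar satellite protein PCM1 to 1784 ± 95.3 from 7695 ± 400.5. The DNA-dependent protein kinase PRKDC fell to 6199 ± 271 from 11659.5 ± 149, the elongation factor EEF2 to 7626 ± 241 from 12764 ± 352 and the chaperone CALR to 9792 ± 857 from 14791 ± 335.

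**Figure D3:**
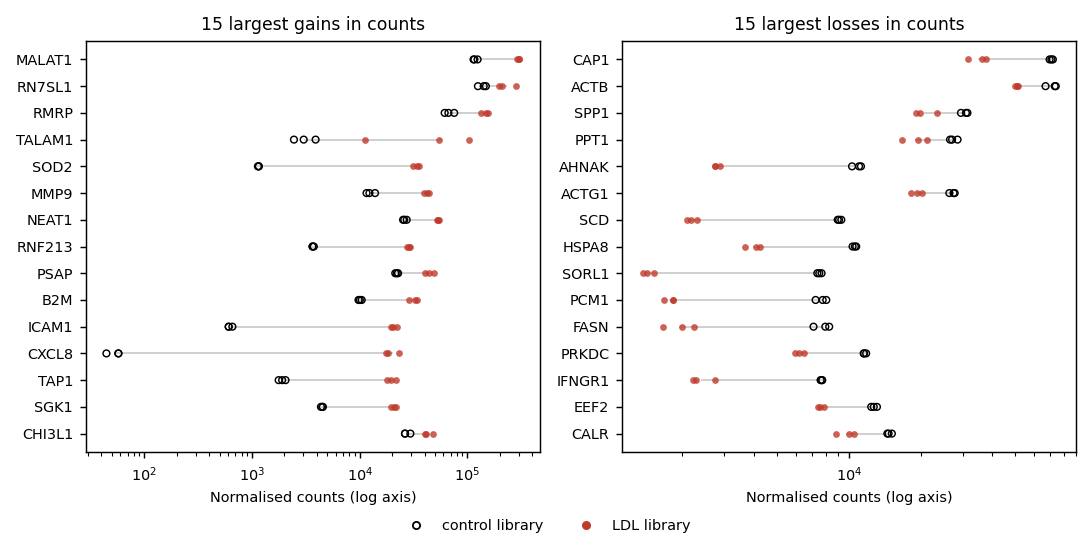
Each row is 1 gene and each point 1 library in normalised counts (log axis), with open circles for control and filled circles for LDL libraries. TALAM1 has the widest LDL spread, and the RN7SL1 direction turns under quantile normalisation.

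Most tested receptors and sensors at the top of innate signalling rose, and a few fell. Of Toll-like receptors and their adaptors, 13 of 20 tested members rose and 3 fell, with a median log2 change of 0.94. IRAK2, a signalling kinase, rose to 1798 ± 75.03 from 33.9 ± 5.59, and TLR2, which senses bacterial lipoproteins, to 6587 ± 1057 from 955 ± 48.1. The adaptor MYD88 rose to 1716 ± 43.7 from 335 ± 41.5 and the trafficking chaperone UNC93B1 to 2815 ± 194 from 1033 ± 117. The lipopolysaccharide receptor TLR4 fell to 491 ± 59.8 from 1057 ± 41.9. Of cytosolic DNA and RNA sensors, 13 of 15 tested members rose and 2 fell (median 1.34). The RNA helicases IFIH1 and RIGI rose to 2881 ± 119 from 185 ± 6.02 and to 1750.3 ± 52.5 from 31.4 ± 3.65. NOD2, which detects bacterial muropeptides, rose to 836 ± 42.0 from 68.7 ± 6.63, and EIF2AK2, the RNA-activated kinase PKR, to 2726 ± 131 from 547 ± 43.1. STING1, the adaptor of cytosolic DNA sensing, fell to 322 ± 30.4 from 903 ± 66.2.

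Downstream, the interferon pathway changed at several tiers. Of the interferon regulatory factors, 6 of 8 tested members rose and 2 fell (median 1.95). IRF7 stood at 120.2, 139.8 and 155 normalised counts against 1992, 1575 and 2006, and IRF1 at 913, 888 and 898 against 5006, 4724 and 4956. The groups did not overlap for either, and IRF9, the DNA-binding partner of STAT2, also rose to 726 ± 113 from 135 ± 7.58. IRF8, a factor of the monocyte lineage, fell to 307 ± 32.4 from 775 ± 15.1. Of STAT factors and their SOCS inhibitors, 10 of 15 tested members rose and 1 fell (median 0.62). STAT2 rose to 11864 ± 355 from 1115 ± 65.6, STAT4 to 425 ± 27.6 from 10.2 ± 1.66 and the feedback inhibitor SOCS3 to 834 ± 89.5 from 69.8 ± 7.96, while SOCS6 fell to 188 ± 24.97 from 602 ± 59.3. The receptors moved in both directions. IFNGR1, the ligand-binding chain of the interferon gamma receptor, stood at 7742, 7712 and 7619.5 against 2288, 2745 and 2228, a fall of 1.67 on the log2 scale. Its partner chain IFNGR2 rose to 3140.3 ± 130.4 from 1157 ± 38.8, and the kinases JAK2 and TYK2 rose to 2496 ± 107 from 962 ± 53.1 and to 5567 ± 816 from 2184 ± 143.

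Effector families of the interferon response differed in how uniformly they moved. All 5 tested guanylate-binding proteins, GTPases that attack intracellular pathogens, rose, with a median log2 change of 4.74. GBP1 rose to 3127 ± 153 from 116 ± 4.04, GBP4 to 2399 ± 230.5 from 65.2 ± 2.62, GBP5 to 1600.2 ± 45.4 from 29.9 ± 6.11 and GBP2 to 1162 ± 75.2 from 140.3 ± 12.9. All 4 tested apolipoprotein L genes rose (median 1.95), APOL6 to 2648 ± 120.1 from 701 ± 43.3 and APOL1, the trypanolytic factor, to 810.5 ± 32.4 from 206 ± 14.98. Of the PARP family, which attaches ADP-ribose to proteins, 8 of 13 tested members rose and 2 fell (median 0.49). PARP14, PARP9 and PARP12 rose to 8861 ± 438 from 778 ± 20.6, to 2068 ± 59.0 from 222 ± 14.4 and to 2759 ± 146 from 351 ± 14.4, whereas the DNA damage sensor PARP1 fell to 1983 ± 126 from 5470.5 ± 94.3. Of the TRIM family of ubiquitin ligases, 19 of 41 tested members rose and 10 fell (median 0.23). TRIM22 stood at 79.3, 87.6 and 89.3 against 4926, 5098 and 4960.4, and the groups did not overlap. TRIM25, TRIM69 and the retroviral restriction factor TRIM5 rose to 3997 ± 138 from 1009 ± 50.2, to 806 ± 24.7 from 87.7 ± 3.34 and to 569.7 ± 48.6 from 83.7 ± 11.9.

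Components and inhibitors of NF-kB rose together. Of NF-kB subunits, IkB inhibitors and TRAF proteins, 22 of 26 tested members rose and 0 fell, with a median log2 change of 1.36. TNFAIP3, the deubiquitinase A20 that dampens the pathway, stood at 589.6, 615 and 632 against 11359, 10942 and 11066, with a log2 change of 4.18 (SE 0.058, adjusted p = 2.3e-14). The adaptor TRAF1 rose to 4308 ± 232 from 91.6 ± 10.5, the inhibitor NFKBIA to 5684 ± 135 from 705 ± 28.5 and the subunit NFKB2 to 3845 ± 247 from 398 ± 3.26. Of the TNF superfamily ligands, 9 of 10 tested members rose and 0 fell (median 1.11). TNFSF10, which encodes TRAIL, rose to 732 ± 65.0 from 17.8 ± 2.59, TNFSF13B, the B cell factor BAFF, to 529 ± 18.9 from 14.8 ± 1.34, and TNF to 496 ± 40.9 from 40.5 ± 6.07. Of the TNF receptors, 10 of 15 tested members rose and 1 fell (median 1.52), and CD40 rose to 1384 ± 143 from 59.0 ± 2.62.

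Secreted cytokines rose in most tested members. Of CC chemokines, 8 of 10 tested members rose and 1 fell, with a median log2 change of 5.48. CCL5, which draws T cells and monocytes, stood at 491, 495 and 505 against 8242, 7127 and 7632 (log2 change 3.94, SE 0.066, adjusted p = 6.6e-14). CCL3 and CCL4 rose to 7293 ± 673 from 1164 ± 81.0 and to 1666 ± 104 from 40.2 ± 3.81, and both have near-identical copies that could share their reads. Of interleukins with IL1RN, 9 of 13 tested members rose and 3 fell (median 4.56). IL1B stood at 236, 225 and 230.2 against 9139.5, 9057 and 7795, and its natural antagonist IL1RN at 361, 372 and 364 against 8748, 9119 and 8085. The libraries of each group lay close together for both genes. EBI3, a subunit shared by IL-27 and IL-35, rose to 1754 ± 233 from 26.5 ± 3.14, and IL23A to 339.6 ± 25.4 from 7.21 ± 2.99, and IL16 fell to 26.0 ± 2.54 from 61.9 ± 7.26. Of interleukin receptors, 13 of 22 tested members rose and 6 fell (median 0.74). IL15RA, which presents IL-15 to lymphocytes, rose to 616 ± 64.0 from 14.1 ± 6.70, and IL7R to 518 ± 38.6 from 127 ± 9.85. Of chemokine receptors, 5 of 10 tested members rose and 4 fell, and their median of 0.19 changed sign under quantile normalisation. CXCR4 and the scavenging receptor ACKR3, which share a ligand, rose to 652 ± 33.7 from 148 ± 17.9 and to 291 ± 23.03 from 60.1 ± 8.99.

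Both arms of antigen presentation rose. Of class I and peptide-loading genes, 15 of 16 tested members rose and 1 fell, with a median log2 change of 1.57, and their share of the summed values went from 0.787% to 1.51%. TAP1 stood at 1768, 1904 and 2048 against 21817, 19664 and 18083, and its partner TAP2 rose to 3371 ± 264 from 906 ± 54.0. NLRC5, the transactivator of class I genes, rose to 4841 ± 566 from 1104 ± 5.13, and HLA-E to 7623 ± 832 from 2146 ± 88.3. Class I heavy-chain genes are alike enough that reads may be split among them. Of class II genes with their transactivator CIITA, 13 of 15 tested members rose and 0 fell (median 1.52). The invariant chain CD74 rose to 1871 ± 143 from 447 ± 39.6 and HLA-DPA1 to 141 ± 17.8 from 2.90 ± 0.335. HLA-DQA1 was listed at 0 in every control library and stood at 69.4, 85.4 and 78.7 with LDL. Of costimulatory and checkpoint ligands, 12 of 13 tested members rose and 1 fell (median 1.72), and NECTIN2, a ligand of T and NK cell receptors, rose to 1913 ± 246 from 577 ± 22.1.

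The proteasome, which makes the peptides that class I molecules display, was split. Of subunits named PSMA to PSMD, 14 of 37 tested members rose and 13 fell, and their median of 0.058 changed sign under TMM, median-of-ratios and quantile scaling. PSMA4 rose to 1203 ± 53.7 from 465 ± 15.5, PSMA1 to 491 ± 22.3 from 211 ± 4.41 and PSMA6 to 218 ± 24.8 from 88.6 ± 2.49. These are all rises, and none of the 13 falls is named. Of the immunoproteasome subunits, the PA28 activator and the proteasome assembly factor POMP, 5 of 6 tested members rose and 1 fell (median 0.69). The fall was that of POMP, to 433 ± 9.79 from 583 ± 58.2. By their names, the PSMB subunits of this list also count among PSMA to PSMD. PSMB9 rose to 897 ± 112 from 335 ± 18.6, PSMB8 to 2245 ± 226 from 1374 ± 27.7 and the activator subunits PSME1 and PSME2 to 679.9 ± 61.8 from 422 ± 21.3 and to 1397 ± 33.7 from 652 ± 61.1.

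Surface receptors for sugars, antibodies and complement moved both ways. Of the Siglecs, which bind sialic acid, 3 of 11 tested members rose and 5 fell (median -0.059). SIGLEC1, the interferon-induced sialoadhesin, stood at 357, 361 and 383 against 8208, 7385 and 8588, far above. CD22 stood at 526, 459 and 476 against 114, 114 and 90.4 and SIGLEC11 fell to 42.6 ± 7.80 from 221 ± 5.87. Of Fc receptors, 3 of 7 tested members rose and 4 fell (median -0.63). The high-affinity receptor FCGR1A fell to 61.7 ± 6.43 from 163 ± 13.03, the signalling chain FCER1G to 905 ± 49.9 from 1406 ± 69.5 and the neonatal receptor FCGRT to 1747 ± 225 from 2918 ± 121. Of C-type lectins, 4 of 9 tested members rose and 4 fell (median -0.17), and CLEC7A, the beta-glucan receptor dectin-1, rose to 629.8 ± 41.7 from 105.5 ± 11.7, while MRC1, the mannose receptor, fell to 0.486 ± 0.842 from 28.0 ± 3.98. Of leukocyte immunoglobulin-like receptors, 5 of 7 tested members rose and 2 fell (median 1.77). The inhibitory LILRB4 rose to 704 ± 63.0 from 192 ± 18.5 and the activating LILRA2 fell to 16.0 ± 8.91 from 127 ± 4.802. LILRA6 and LILRB3, which rose to 90.2 ± 9.97 from 2.73 ± 1.60 and to 91.6 ± 8.596 from 5.02 ± 3.94, share long near-identical stretches, and reads may be split between them. Of complement genes, 11 of 18 tested members rose and 2 fell (median 0.88). The anaphylatoxin receptors C5AR1 and C3AR1 rose to 3464 ± 67.5 from 488 ± 30.7 and to 1159 ± 87.9 from 300.2 ± 55.0, and the C1 inhibitor SERPING1 rose to 350 ± 7.42 from 14.3 ± 4.204.

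AP-1 and myeloid transcription factors rose in most tested members, and the other transcription factor lists moved both ways. Of AP-1 factors, 8 of 12 tested members rose and 1 fell (median 1.12). ATF3 stood at 1609, 1568 and 1566 against 7273, 6999.6 and 6741, and FOSL2, JUNB and MAFF rose to 5613 ± 407 from 1458 ± 57.8, to 3158 ± 324 from 902 ± 84.7 and to 831 ± 85.6 from 85.7 ± 7.65, and BATF fell to 9.95 ± 5.74 from 36.5 ± 0.775. Of myeloid factors, 15 of 21 tested members rose and 5 fell (median 0.96). CEBPB rose to 1781 ± 265 from 253 ± 13.1, PRDM1 to 2121 ± 61.1 from 641 ± 20.3, TFEC to 2090.2 ± 233 from 407 ± 25.2 and BHLHE40 to 1133 ± 114 from 235 ± 18.0, and CEBPA fell to 819 ± 55.6 from 2075 ± 179.6. Of nuclear receptors, 13 of 28 tested members rose and 9 fell, and their median of 0.17 changed sign under quantile normalisation. The oxysterol receptor NR1H3, LXR alpha, rose to 1002 ± 73.4 from 186 ± 11.2, the early-response receptors NR4A3 and NR4A2 to 280 ± 25.3 from 11.5 ± 2.40 and to 357 ± 19.6 from 146 ± 15.3, and the glucocorticoid receptor NR3C1 to 4967 ± 119 from 2861 ± 174. Of Kruppel-like factors, 4 of 13 tested members rose and 4 fell (median -0.046). KLF6 and KLF10 rose to 5419 ± 251 from 2668 ± 26.4 and to 1084 ± 103 from 472 ± 27.1, and KLF4 fell to 343 ± 41.7 from 710.1 ± 49.8. The MYC network had 5 rises and 3 falls among 10 tested members, with the MYC antagonist MXD1 higher (to 1334 ± 76.4 from 244 ± 18.8) and MXD4 lower (to 119.7 ± 24.4 from 329.7 ± 14.8). Of clock genes, 6 of 12 tested members rose and 3 fell (median 0.13). PER1 and PER2 rose to 1084 ± 117 from 611 ± 64.1 and to 449 ± 29.96 from 253 ± 10.04, and DBP fell to 34.1 ± 5.86 from 82.6 ± 8.21. Of the 430 tested ZNF-named genes, 100 were higher and 92 lower, with a median of -0.0070. Their smallest adjusted p belonged to ZNF697, which rose to 2220.1 ± 147 from 333 ± 17.2.

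**Figure D4:**
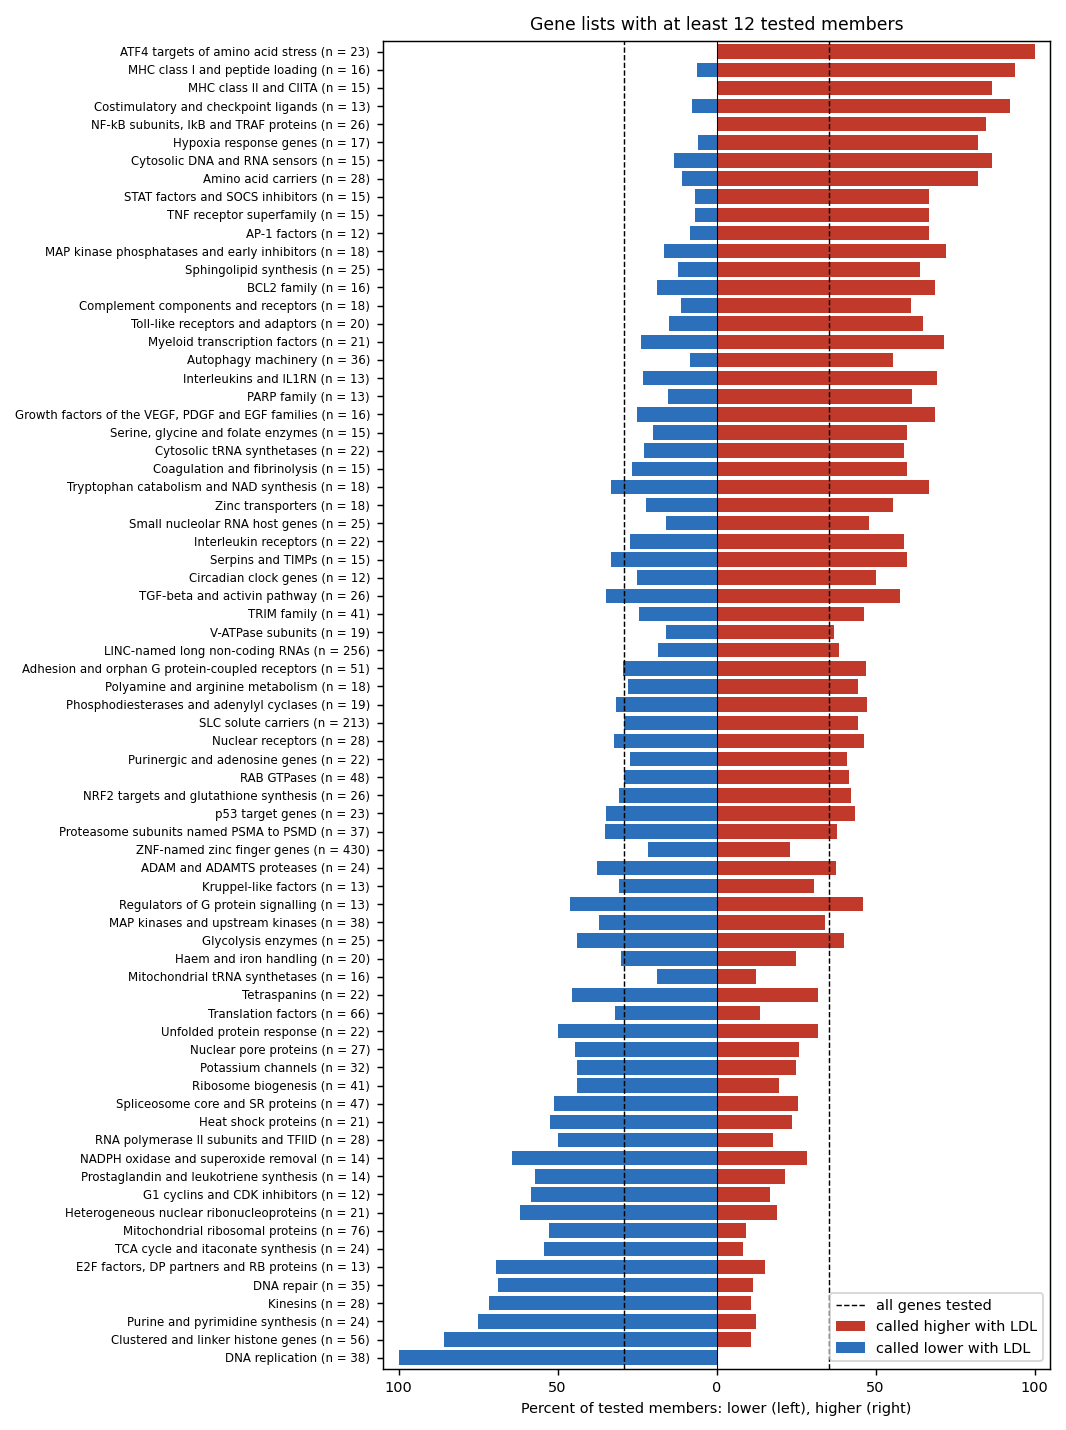
Bars give the percent of tested members of each list called higher (right) or lower (left) with LDL, for lists with at least 12 tested members, and dashed lines mark the 35.5% and 29.0% of all genes tested. The lists run from ATF4 targets, with 23 of 23 higher, to DNA replication, with 38 of 38 lower.

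Genes that answer amino acid shortage rose without exception in their list. All 23 tested targets of ATF4, the factor translated when amino acids run short, rose, with a median log2 change of 2.24, and their share of the summed values went from 0.270% to 0.865%. SLC7A11, the cystine importer, stood at 325, 327 and 344 against 4863, 5529 and 4740.3 (chr4:138164097-138242349, GRCh38), with a log2 change of 3.92 (SE 0.071, adjusted p = 1.4e-13). SLC7A5, which carries leucine, rose to 11981 ± 554 from 1797 ± 233, and SLC3A2, the heavy chain that both transporters share, to 13659.7 ± 1097 from 2869 ± 171. SESN2, an inhibitor of mTORC1, stood at 349, 352 and 359.9 against 2613, 2286 and 2662. None of these groups overlapped. Of amino acid carriers, 23 of 28 tested members rose and 3 fell (median 1.23). The glutamate carrier SLC1A3 rose to 2434 ± 103 from 308 ± 16.8, the leucine carrier SLC43A2 to 1838 ± 170.4 from 51.6 ± 12.48 and the arginine carrier SLC7A2 to 668 ± 94.6 from 27.3 ± 1.29. Some carriers stand in both lists.

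Enzymes that use amino acids rose in part. Of serine, glycine and folate enzymes, 9 of 15 tested members rose and 3 fell (median 0.67). The mitochondrial folate enzymes MTHFD2 and ALDH1L2 rose to 8576 ± 471 from 2481 ± 17.0 and to 1583 ± 38.1 from 399 ± 24.5, and the serine synthesis enzymes PHGDH and PSAT1 to 1865 ± 171 from 813 ± 12.2 and to 2357 ± 140.1 from 678 ± 5.18, while SHMT1 fell to 126 ± 8.30 from 363 ± 5.22. Of cytosolic tRNA synthetases, 13 of 22 tested members rose and 5 fell (median 0.32). WARS1, the tryptophan synthetase that interferon induces, stood at 1004, 1034 and 1001 against 7544, 7716 and 7343. GARS1, MARS1 and IARS1 rose to 5512 ± 382 from 1819 ± 11.7, to 4418 ± 257 from 1720.4 ± 72.2 and to 7823 ± 409.8 from 3456 ± 53.5. Of the 16 tested mitochondrial synthetases, 2 rose and 3 fell (median -0.052). Of tryptophan catabolism and NAD synthesis genes, 12 of 18 tested members rose and 6 fell (median 0.55). KYNU, the kynureninase, rose to 3367 ± 294 from 273 ± 10.1, and NAMPT, which salvages NAD, to 5131 ± 560.2 from 405 ± 26.7. QPRT, which makes NAD from quinolinate, fell to 97.7 ± 6.29 from 832 ± 28.7. Of polyamine and arginine genes, 8 of 18 tested members rose and 5 fell, with a median of 0.29 that changed sign under quantile normalisation, and SAT1, which breaks polyamines down, rose to 5718 ± 256 from 888 ± 65.0.

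Hypoxia genes mostly rose, whereas glycolysis as a list did not move one way. Of hypoxia response genes, 14 of 17 tested members rose and 1 fell (median 1.15). HIF1A, the oxygen-regulated factor, stood at 779, 825 and 799.7 against 2672, 3052 and 2956. Its targets VEGFA, DDIT4 and ADM rose to 5661 ± 517 from 1194 ± 65.4, to 5259.5 ± 730 from 1029 ± 75.6 and to 1279 ± 202 from 265 ± 14.5. VEGFA also stands in the ATF4 list, so the counts of the hypoxia and ATF4 lists are not separate. Of glycolysis enzymes with sugar and lactate carriers, 10 of 25 tested members rose and 11 fell, with a median of 0.12 that changed sign under quantile normalisation. Hexokinase HK2 rose to 2959 ± 96.8 from 427 ± 18.2, the glucose carriers SLC2A1 and SLC2A6 to 4528 ± 264 from 1691 ± 126 and to 2518 ± 319 from 182 ± 3.55, and the lactate exporter SLC16A3 to 7112 ± 876 from 2375 ± 173. Only HK2 of these is an enzyme of the pathway. Among the 11 falls, GAPDH had the smallest adjusted p (to 3439.9 ± 277 from 6259 ± 212). Of the 8 tested pentose phosphate genes, 3 rose and 2 fell (median -0.018). Of TCA cycle and itaconate synthesis genes, 2 of 24 tested members rose and 13 fell (median -0.40). The rises included ACOD1, which makes itaconate. IDH2 fell to 724 ± 46.3 from 2055 ± 55.2, the malate dehydrogenase MDH1 to 1409 ± 108 from 2899.6 ± 174 and the citrate exporter SLC25A1 to 182 ± 31.7 from 759.8 ± 4.01. Lipid enzymes outside sterol and fatty acid synthesis were split by pathway. Of sphingolipid synthesis genes, 16 of 25 tested members rose and 3 fell (median 0.32), with the sphingosine kinase SPHK1 higher (to 897 ± 129 from 117 ± 11.9). Of prostaglandin and leukotriene genes, 3 of 14 tested members rose and 8 fell (median -0.45). The inducible cyclooxygenase PTGS2 rose to 519 ± 84.6 from 88.1 ± 14.6 and the constitutive PTGS1 fell to 3092 ± 218 from 5657 ± 115.

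Protein-folding genes did not share the rise of the ATF4 list. Of unfolded protein response genes, 7 of 22 tested members rose and 11 fell (median -0.12). The sensor ERN1 rose to 1447 ± 37.9 from 396 ± 6.69, DDIT3, the death-promoting factor CHOP, to 381 ± 12.2 from 106 ± 4.22, and EDEM1, which sends misfolded proteins for degradation, to 7806 ± 303 from 2421 ± 118. The folding chaperone HSP90B1 fell to 1669 ± 121 from 4367 ± 186. Of heat shock proteins, 5 of 21 tested members rose and 11 fell (median -0.22). HSPA8, the constitutive cytosolic chaperone, stood at 10746, 10612 and 10379 against 4085, 4253 and 3657, a log2 change of -1.41 (adjusted p = 1.2e-09). HSPB1 fell to 465 ± 44.7 from 1169 ± 63.6, and the mitochondrial HSPA9 rose to 4724 ± 27.6 from 2631 ± 98.9. Of autophagy genes, 20 of 36 tested members rose and 3 fell (median 0.31), with the cargo receptors SQSTM1 and OPTN higher (to 5535 ± 308 from 1917 ± 75.2 and to 349 ± 24.7 from 61.0 ± 8.02).

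Redox and metal genes held some of the strongest single changes. SOD2 stood at 1135, 1158 and 1150.3 against 34028, 35291 and 31598, a log2 change of 4.87 (SE 0.061, adjusted p = 2.0e-14). Of the 14 tested NADPH oxidase and superoxide genes, 4 rose and 9 fell (median -0.39). The oxidase subunit NCF1 rose to 456 ± 66.4 from 13.4 ± 1.93, and it may share reads with its copy NCF1C, which rose to 137 ± 13.6 from 0.944 ± 0.982. Catalase, CAT, fell to 274 ± 21.1 from 1085 ± 48.6. Of NRF2 targets and glutathione genes, 11 of 26 tested members rose and 8 fell (median -0.0097), with NFE2L2 itself higher (to 2397 ± 20.4 from 775 ± 17.7) and the thioredoxin reductase TXNRD1 higher (to 3898 ± 144 from 1439.8 ± 19.4). Of the 4 tested metallothioneins, which bind zinc, 3 rose (median 1.47): MT2A to 169.7 ± 29.6 from 47.9 ± 3.81, MT1X to 115 ± 15.4 from 35.3 ± 9.82 and MT1E to 58.8 ± 10.04 from 24.05 ± 2.73, and their reads may be shared among close copies. Of zinc transporters, 10 of 18 tested members rose and 4 fell (median 0.41), and the importer SLC39A14 stood at 1429, 1498 and 1571 against 8160.2, 8561 and 7028. Of haem and iron genes, 5 of 20 tested members rose and 6 fell, with a median of 0.018 that changed sign under TMM, median-of-ratios and quantile scaling. The iron carrier SLC11A2 rose to 4081 ± 126 from 910 ± 33.7, ferritin FTH1 to 7141 ± 125 from 3344 ± 102 and the haemoglobin scavenger CD163 to 971 ± 36.5 from 379 ± 9.93.

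Genes of DNA synthesis and chromatin assembly fell together. All 38 tested DNA replication genes fell, with a median log2 change of -1.06, and their share of the summed values went from 0.406% to 0.153%. MCM4, a subunit of the replicative helicase, stood at 2834, 2818 and 2787 against 920.3, 985 and 865, a log2 change of -1.61 (SE 0.064, adjusted p = 2.3e-10). FEN1, which trims Okazaki fragments, stood at 838, 810.3 and 805 against 230.1, 193 and 195. LIG1, which seals them, fell to 242 ± 14.2 from 697 ± 29.96, and CDC6, which loads the helicase, to 181 ± 4.601 from 515 ± 8.68. The promoters of LIG1 and CDC6 are shown because they carry an E2F match, the letters read by the factors that switch on S-phase genes, again in capitals.
LIG1, chr19:48170295-48170594, minus strand, E2F: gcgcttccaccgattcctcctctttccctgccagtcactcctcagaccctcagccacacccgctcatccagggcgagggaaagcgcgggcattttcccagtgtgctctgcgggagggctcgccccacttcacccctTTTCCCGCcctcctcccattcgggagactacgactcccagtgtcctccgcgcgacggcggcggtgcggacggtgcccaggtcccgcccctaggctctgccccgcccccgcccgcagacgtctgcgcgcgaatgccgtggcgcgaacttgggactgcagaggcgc
CDC6, chr17:40287629-40287928, plus strand, E2F: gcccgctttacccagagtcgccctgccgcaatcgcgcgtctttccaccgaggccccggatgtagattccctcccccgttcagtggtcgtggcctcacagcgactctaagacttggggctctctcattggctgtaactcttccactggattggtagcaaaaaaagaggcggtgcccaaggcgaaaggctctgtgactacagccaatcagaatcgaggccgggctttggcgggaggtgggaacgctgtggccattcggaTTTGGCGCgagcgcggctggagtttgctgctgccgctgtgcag
The match lay from -114 to -107 in LIG1 and from 7 to 14 in CDC6. Both promoters were picked for holding a match, so they do not show how common it is in the list. Of all tested genes with an E2F match, 34.4% were called lower, against 32.2% of those without it. Of E2F factors with their DP partners and RB proteins, 2 of 13 tested members rose and 9 fell (median -1.003), and E2F1, E2F7 and E2F8 fell to 265 ± 27.0 from 595 ± 32.6, to 222 ± 13.1 from 501 ± 4.71 and to 78.8 ± 12.45 from 316 ± 20.6, while E2F5 rose to 88.3 ± 22.4 from 18.3 ± 2.80.

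Nucleotide supply, repair, histones and spindle motors mostly fell. Of purine and pyrimidine synthesis genes, 3 of 24 tested members rose and 18 fell (median -0.67). Thymidylate synthase TYMS fell to 471 ± 37.6 from 1864 ± 34.1, thymidine kinase TK1 to 182 ± 15.8 from 759 ± 32.3 and the ribonucleotide reductase subunit RRM1 to 459 ± 55.7 from 1378 ± 33.7. Of DNA repair genes, 4 of 35 tested members rose and 24 fell (median -0.78), with BRCA1 lower (to 319 ± 10.5 from 809 ± 46.6) and the nuclease EXO1 lower (to 169 ± 10.5 from 524 ± 35.7) and the ligase LIG4 higher (to 206 ± 7.83 from 106 ± 8.30). Of clustered and linker histone genes, 6 of 56 tested members rose and 48 fell (median -1.80), and their share of the summed values went from 0.742% to 0.235%. The linker histone H1-5 stood at 4654, 4831 and 4527 against 750.4, 677 and 729, and H3C2 fell to 314 ± 35.5 from 2546 ± 152. Histone genes of a type are near copies of each other, and reads may be split among them. Of kinesins, 3 of 28 tested members rose and 20 fell (median -0.98), with KIF20A, KIF4A and KIF18B, motors of mitosis, lower (to 78.3 ± 7.50 from 526 ± 29.7, to 72.5 ± 3.71 from 368 ± 16.1 and to 129 ± 10.4 from 659.8 ± 15.04). Of G1 cyclins and CDK inhibitors, 2 of 12 tested members rose and 7 fell (median -0.52). CCNE1, CCNE2 and the inhibitor CDKN2C fell to 103 ± 8.004 from 249 ± 28.2, to 184 ± 15.3 from 588 ± 18.7 and to 218 ± 3.40 from 1281 ± 55.7, and cyclin D1, CCND1, rose to 3227 ± 139 from 1092 ± 54.6.

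Genes of cell death and damage control were mixed. Of BCL2 family genes, 11 of 16 tested members rose and 3 fell (median 0.68). The survival factors MCL1, BCL2 and BCL2A1 rose to 21319 ± 589 from 7835 ± 94.9, to 2565 ± 49.5 from 958 ± 41.0 and to 537 ± 9.17 from 90.3 ± 3.90, and the death promoter BIK fell to 13.6 ± 3.08 from 64.1 ± 4.52. Of p53 targets, 10 of 23 tested members rose and 8 fell, with a median of 0.14 that changed sign under quantile normalisation. The antiproliferative BTG2 rose to 7849 ± 92.2 from 1993 ± 108, PLK3 to 2901 ± 237 from 329.8 ± 29.4 and the TRAIL receptor TNFRSF10B to 1741 ± 83.5 from 576 ± 13.1.

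Lists of RNA processing and translation had medians on both sides of 0. Of mitochondrial ribosomal proteins, 7 of 76 tested members rose and 40 fell (median -0.38), with MRPL37 lower (to 472 ± 64.9 from 1061 ± 24.1) and MRPL32 higher (to 292 ± 25.5 from 119.7 ± 6.33). Of translation factors, 9 of 66 tested members rose and 21 fell (median -0.15). EIF4B and EEF1B2 fell to 589 ± 33.1 from 1515 ± 117 and to 391 ± 53.3 from 1310.2 ± 102, and EIF5 rose to 2822 ± 106 from 1503 ± 88.7. Of ribosome biogenesis genes, 8 of 41 tested members rose and 18 fell (median -0.12), with the nucleolar proteins FBL and NCL lower (to 192 ± 10.6 from 512 ± 16.5 and to 1049.9 ± 68.7 from 1787 ± 171). Of spliceosome and SR proteins, 12 of 47 tested members rose and 24 fell (median -0.26), with SF3A3 lower (to 285 ± 5.21 from 555 ± 18.1) and SRSF5 higher (to 3443 ± 125 from 1871 ± 58.2). Of heterogeneous nuclear ribonucleoproteins, 4 of 21 tested members rose and 13 fell (median -0.37). Of RNA polymerase II subunits and TFIID, 5 of 28 tested members rose and 14 fell (median -0.26), and of nuclear pore proteins, 7 of 27 tested members rose and 12 fell (median -0.14). NUP210 stood apart within its list, at 5786, 6197 and 6616 against 2168, 2066 and 2254. Of host genes of small nucleolar RNAs, 12 of 25 tested members rose and 4 fell (median 0.26), with GAS5 and SNHG3 higher (to 3851 ± 205 from 2343 ± 106 and to 4071 ± 149.6 from 1975 ± 183).

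Transporters, receptors and secreted regulators moved in both directions. Of all SLC solute carriers, 95 of 213 tested members rose and 62 fell, with a median of 0.16 that changed sign under quantile normalisation. Of purinergic and adenosine genes, 9 of 22 tested members rose and 6 fell, with a median of 0.027 that changed sign under all 3 other scalings. P2RX7, the ATP-gated channel that triggers release of IL-1, stood at 313, 305 and 329 against 3789.9, 3811 and 3439.7, and NT5E, which makes adenosine, rose to 703 ± 118 from 135 ± 11.02. Of potassium channels, 8 of 32 tested members rose and 14 fell (median -0.11), with KCNA3 higher (to 184 ± 30.9 from 6.04 ± 1.49) and KCNQ1 lower (to 64.6 ± 8.41 from 421 ± 37.8). Of adhesion and orphan G protein-coupled receptors, 24 of 51 tested members rose and 15 fell (median 0.38). The myeloid receptors ADGRE2 and ADGRE5 rose to 2341 ± 40.1 from 445 ± 15.3 and to 5199 ± 224 from 1133 ± 80.6. Of tetraspanins, 7 of 22 tested members rose and 10 fell (median -0.30), with CD82 higher (to 2831 ± 309 from 344 ± 15.8) and CD9 lower (to 136 ± 10.9 from 348 ± 26.3). Of RAB GTPases, 20 of 48 tested members rose and 14 fell, with a median of 0.080 that changed sign under TMM. Of V-ATPase subunits, 7 of 19 tested members rose and 3 fell, with a median of 0.016 that changed sign under all 3 other scalings, and ATP6V1B2 rose to 9463 ± 601 from 2959 ± 23.01.

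Secreted and calcium-binding proteins moved both ways. Of S100 proteins, 3 of 9 tested members rose and 6 fell (median -1.79), and S100A4 stood at 1984, 1859.7 and 1729 against 264, 219 and 216. S100A6 and S100A10 fell to 247 ± 53.2 from 952 ± 60.2 and to 32.2 ± 3.87 from 197 ± 6.28, and S100A11 rose to 901 ± 49.4 from 634 ± 63.8. Of serpins and TIMPs, 9 of 15 tested members rose and 5 fell (median 0.68). The thrombin inhibitor SERPINE2 stood at 319.6, 348 and 363 against 4389, 4763 and 4029, and SERPINB9, which blocks granzyme B, rose to 276 ± 15.8 from 5.92 ± 1.58. Of coagulation and fibrinolysis genes, 9 of 15 tested members rose and 4 fell (median 1.30), with urokinase PLAU and its receptor PLAUR higher (to 1291 ± 107 from 413 ± 12.1 and to 3949 ± 292 from 720.4 ± 37.1). Of ADAM and ADAMTS proteases, 9 of 24 tested members rose and 9 fell, with a median of 0.19 that changed sign under quantile normalisation, and ADAM17, which sheds TNF, rose to 5059.9 ± 240.2 from 1973 ± 50.9.

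Many feedback genes of signalling rose, and kinases were split. Of MAP kinase phosphatases and early inhibitors, 13 of 18 tested members rose and 3 fell (median 1.02). DUSP5 stood at 179, 199 and 200.2 against 4637, 4709 and 4562, and DUSP1 rose to 15321 ± 506 from 4079.6 ± 198. Of MAP kinases and upstream kinases, 13 of 38 tested members rose and 14 fell, with a median of 0.0025 whose sign changed under all 3 other scalings. Of regulators of G protein signalling, 6 of 13 tested members rose and 6 fell (median 0.59), with RGS16 and RGS1 higher (to 10000.2 ± 503 from 532 ± 17.7 and to 9428 ± 1147 from 3043 ± 140.1). Of phosphodiesterases and adenylyl cyclases, 9 of 19 tested members rose and 6 fell (median 0.27). PDE4B, which degrades cyclic AMP, rose to 937 ± 37.9 from 35.5 ± 5.14, and the cyclases ADCY1 and ADCY9 fell to 128 ± 8.43 from 497 ± 10.6 and to 577 ± 16.0 from 1509.8 ± 60.7. Of TGF-beta and activin genes, 15 of 26 tested members rose and 9 fell (median 0.47). INHBA, the activin A subunit, rose to 397 ± 27.1 from 9.45 ± 0.979, the inhibitor SMAD7 to 1702 ± 198 from 462 ± 20.9, and the receptor TGFBR2 fell to 429 ± 28.9 from 1074 ± 10.1. Of growth factors, 11 of 16 tested members rose and 4 fell (median 1.78). CSF1, the growth factor of macrophages, stood at 94.1, 81.7 and 85.5 against 2465, 2292 and 2474, and NRG1 and VEGFC rose to 815 ± 24.8 from 31.0 ± 7.09 and to 411 ± 29.97 from 24.4 ± 3.07.

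Classes of non-coding RNA differed in their shares of called genes. Of 12565 protein-coding genes of GENCODE release 29, 33.2% were higher and 34.0% lower, with a median log2 change of -0.019. Of 1064 antisense genes, 49.2% were higher and 8.36% lower (median 0.63), and of 736 lincRNAs, 41.4% and 14.4% (median 0.41). Under quantile normalisation the medians were -0.15 for coding genes, 0.38 for antisense genes and 0.15 for lincRNAs. The antisense share of the summed values differed between LDL libraries. It was between 0.635% and 0.680% in the control libraries and between 0.786% and 1.11% with LDL. Of the 29 tested miRNA genes 31.0% were higher, and of 41 sense-overlapping genes 31.7%. Among small RNAs of the nucleus, 43 of 60 snoRNAs rose and 1 fell (median 0.90), and 29 of 37 snRNAs rose and 1 fell (median 1.05). SNORA74B rose to 1184 ± 122 from 293 ± 40.6, SCARNA5 to 4523 ± 353 from 1445 ± 119.7 and RNVU1-27 to 721 ± 82.6 from 359.8 ± 19.3. Of the LINC-named genes, 99 of 256 tested members rose and 47 fell (median 0.34). MIR155HG, the host of the inflammatory microRNA miR-155, rose to 949 ± 69.1 from 144 ± 6.84. LUCAT1, a feedback RNA of the interferon response, rose to 1891 ± 129.9 from 300.4 ± 9.26, and NRIR to 431 ± 24.9 from 9.21 ± 1.09. Of 885 such antisense genes with a tested coding gene on the other strand, 468 rose. The coding partner also rose for 303 of these, fell for 62 and was not called for 103. Over all 885 pairs, 413 coding partners rose and 264 fell. Reads of a gene and its antisense partner cannot be told apart if strand was not used in counting.

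Gene size and base composition moved with the response by small amounts. The median log2 change of coding genes went from -0.15 in the shortest quintile of genes to 0.058 in the longest, and by exonic length from -0.19 to 0.10. By GC content of the longest transcript it went from 0.13 in the lowest quintile to -0.14 in the highest. Across genes, which are not independent replicates, Spearman's rho with the log2 change was 0.083 for gene length, 0.111 for exonic length and -0.104 for GC. By chromosome, the share called higher ran from 26.0% on chromosome 19 to 45.0% on chromosome 21 among nuclear chromosomes. Of the 18 tested genes of the mitochondrial genome, 14 fell and 1 rose, with a median of -1.48. The exception was MT-TP, a proline tRNA gene, at 25.3, 16.3 and 23.5 against 27.7, 429.7 and 191, where the LDL libraries were widely spread and the call was lost without the trend (adjusted p = 0.057). The part of RNA quality in these class differences was not tested.

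**Figure D5:**
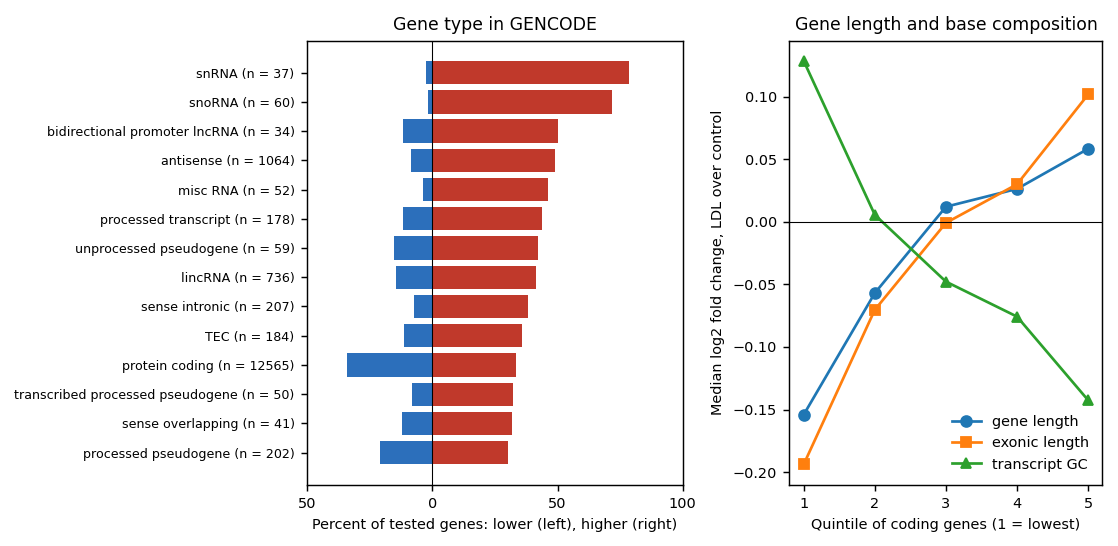
The left panel gives the percent of tested genes called higher (right) or lower (left) by gene type in GENCODE, and the right panel the median log2 fold change of coding genes over 5 quintiles of gene length, exonic length and transcript GC. The snRNAs and snoRNAs have the highest shares called higher, and the medians rise with length and fall with GC.

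Genes often used to scale expression did not all stay level. Among 11 of a panel of 12 such genes, GAPDH fell to 3439.9 ± 277 from 6259 ± 212, HPRT1 to 215 ± 7.51 from 342 ± 0.940, SDHA to 170.1 ± 6.02 from 268 ± 3.12 and PPIA to 1944 ± 54.1 from 2707 ± 112. B2M rose to 32056 ± 2780.5 from 10081 ± 345. GUSB, POLR2A, TFRC, YWHAZ, PGK1 and TBP were not called. Under quantile normalisation GUSB was at -0.33, POLR2A at -0.37, TFRC at -0.35, YWHAZ at -0.33 and PGK1 at -0.37, all called lower, and PGK1 was called higher at 0.18 without LDL replicate 3. The 8 coding genes with the smallest change among those above 500 normalised counts in both groups were CYRIB, NPEPPS, CD164, EIF4A3, P3H1, ETF1, PDXDC1 and KIAA0232. EIF4A3, an exon junction helicase, stood at 877, 857 and 881 against 860.2, 844 and 913, and ETF1, the translation release factor, at 2019, 1910 and 1804 against 1942, 1895 and 1893. The groups overlapped for both, although quantile normalisation gave log2 changes of -0.19 and -0.30. CD164, a sialomucin, was at -0.68 under quantile normalisation and at -0.14 (adjusted p = 0.045) without LDL replicate 2.

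Macrophage markers were present in both groups. Of 18 monocyte and macrophage markers, 17 were tested, 8 rose and 4 fell, and their summed level was between 50333 and 54046 in the control libraries and between 73539 and 80351 with LDL. CD68 was listed at 0 in all 6 libraries. The defining endothelial genes CDH5, KDR and TEK, the epithelial keratins KRT8, KRT18 and KRT19, and the fibroblast genes COL1A2, COL3A1, DCN and LUM were also listed at 0. Since CD68, a macrophage gene, was at 0 as well, a listed 0 is not read here as absence of expression. Of 8 T and NK cell markers 4 were in the table and 3 tested, and the summed level of the 4 was between 587 and 624 without LDL and between 1885 and 1958 with it. Within that list, NCAM1 rose to 1766 ± 23.4 from 361 ± 13.8 and TRAC fell to 130.4 ± 11.2 from 225 ± 13.7. PAX5, 1 of 5 B cell markers and the single one tested, rose to 421 ± 53.4 from 15.7 ± 2.69. The 6 tested endothelial markers summed to between 3396 and 3766 without LDL and to between 3276 and 3722 with it. NCAM1, TRAC and PAX5 were picked from these lists after their values were seen. The part of these markers in the other results was not tested.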

How the data were processed

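RNA was sequenced from PMA-induced THP-1 macrophages, 3 control and 3 LDL libraries. Per the submitters' processing notes, the build was GRCh38 and the tools included STAR with HTSeq, and DESeq2, FastQC and MultiQC, listed without roles or order. Their versions, annotation release and strand setting: not given in the sources used here. Per the file headers, the deposited table holds a normalised count signal per gene and library. Whole reads were recovered by dividing each library by its smallest step: 100% of values were whole within 0.001 reads.

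Groups were compared with limma 3.58.1 (trend, two-sided) on log2(value + 1), which understates changes of low genes, for genes with a group mean of at least 10, with Benjamini-Hochberg adjustment over 16167 genes. An exact permutation test of 3 against 3 libraries cannot go below 0.1, so none was used. Recovered reads were refitted with edgeR 4.0.16 and DESeq2 1.42.0. The limma code was tested on simulated data. Symbols, types and coordinates came from name tables and GENCODE 29 (19232 of 20117 IDs matched) and promoters from RefSeq. SD is over libraries, and SE is the moderated SE of limma, whose variance is drawn toward a trend over genes.

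The 89 gene lists, the marker lists, the panel and the members were chosen with earlier results of these data known. Named genes were the 20 largest rises and falls (mean of at least 50, groups not overlapping, no group at 0 in all libraries), the 15 largest gains and losses in counts, up to 4 list members by adjusted p plus 1 against the majority, the 8 least changed, up to 3 per non-coding type, and the 12 highest listed at 0 in a group. A few genes that this rule names are not reported here.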

Additional observations from a re-analysis of the deposited data

How the results depend on the processing

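Every count of calls stayed within 1.5 times its main value under all 17 alternatives. Calls numbered 10425 as reported, between 9178 and 10449 with 1 library left out, 10610 with edgeR and 9321 with DESeq2 on recovered reads. The median log2 change of all genes, 0.076 as reported, was 0.014 with DESeq2, -0.016 with edgeR, -0.022 under TMM, 0.0073 under median-of-ratios scaling, 0.033 with a mean of at least 50 and -0.082 under quantile normalisation. Of 506 named genes, 492 were called, and 484 of all named kept direction and call under every setting that tested them (with a mean of at least 50, 498 were tested). Quantile normalisation turned the sign of EIF4A3 (-0.19), ETF1 (-0.30), P3H1 (-0.49), PGK1 (-0.37), RN7SL1 (-0.31), TFRC (-0.35) and YWHAZ (-0.33), and the cause was not tested. With quantile normalisation 9297 calls were shared with the same direction and 29 with the opposite. Labels number the libraries of each group, but same-numbered libraries did not deviate together (correlations -0.0971, -0.0888 and 0.0356), and not every library correlated best with its own number. With the replicate block there were 10377 calls, 5721 higher and 4656 lower. At this depth, genes near 10 normalised counts rest on few reads.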

Other observations

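Pseudogenes moved in both directions. NCF1C rose to 137 ± 13.6 normalised counts from 0.944 ± 0.982, RAB1AP1 to 115 ± 20.8 from 8.599 ± 2.38 and RPLP0P2 to 225 ± 24.1 from 29.0 ± 2.59. HLA-H rose to 443 ± 63.9 from 157 ± 29.2. KRT18P32 fell to 5.63 ± 1.96 from 89.8 ± 4.29, CDC20P1 to 20.7 ± 0.310 from 88.9 ± 0.594 and MTND2P28 to 39.9 ± 4.16 from 137 ± 17.1. Reads of a pseudogene may belong to its parent gene. Among long non-coding RNAs, LINC-PINT rose to 4017 ± 164 from 498 ± 15.2 and IRF1-AS1 to 671 ± 200.3 from 99.7 ± 9.37, and HELLPAR fell to 221 ± 22.1 from 489 ± 52.99.

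Gene length and GC content were also read together, with coding genes split in 3 groups by each. The highest median log2 change was 0.15, in the 1952 long genes of low GC, of which 42.0% were called higher. The lowest was -0.16, in the 2291 short genes of high GC, of which 26.1% were called higher. Long genes of high GC, 628 in number, had a median of -0.15.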
